A study of Mus musculus with 24 samples.

Results

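Transcripts of 9 transcription factors known from blood stem cells were followed through 24 RNA-seq libraries of sorted embryonic cells. The genes are Hlf, Mecom, Prdm16, Myb, Ikzf1, Ikzf2, Mycn, Hhex and Meis1. They were chosen by name, with no threshold on measured values, and matched by gene symbol. Earlier results of these data were known when they were chosen. All 9 are among the 29716 genes of the deposited count table, and all 9 are among the 15618 genes that passed the filter on low counts.

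All libraries came from C57BL/6J mouse embryos at E10.5, the stage at which clusters of blood cells bud from the wall of the aorta. Each embryo received an intracardiac injection of either anti-Dll4, which binds a Notch ligand made by endothelial cells, or an anti-human IgG control antibody. Culture for 5 h followed in medium with 5 µg/ml antibody, 10 ng/ml of interleukin 3 and 10 µM hydrocortisone, so every group, the controls included, carried that medium. CD31+ cells were then sorted, and the titles give 3 populations: Kit+ CD45+, Kit+ CD45- and Kit- CD41+ CD45-. Each population has 4 libraries under anti-Dll4 and 4 under IgG. The part of the embryo that was dissected, the number of cells sorted and the number of embryos per library are not stated in the labels, so p-values reflect only how these samples varied, which may be technical.

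Blood stem cells of the embryo arise from a specialised endothelium, whose cells round up, enter clusters, take up the receptor Kit on their surface and later the blood cell marker CD45. CD41 marks early blood progenitors and is also the integrin chain of megakaryocytes and platelets. The 9 factors belong to several families. Hlf is a basic leucine zipper factor of the PAR family, used as a mark of blood stem cells in mouse and human. Mecom, which gives the Evi1 protein, and Prdm16 are related zinc finger factors needed for stem cell maintenance in mice. Myb is required for definitive blood formation, and Ikzf1 (Ikaros) and Ikzf2 (Helios) are zinc finger factors of lymphoid and stem cells. Mycn is a Myc family factor that acts with Max. Hhex and Meis1 are homeodomain factors, of blood and endothelial progenitors and, for Meis1, of stem cells and megakaryocytes.

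Library totals ran from 8718351 to 11379830 counts. Levels below are TMM-scaled CPM, counts scaled by the library total multiplied by its TMM factor, so they are not shares of that total. In Kit+ CD45- anti-Dll4 replicate 4, for example, globin took 49.3% of all counts, while 15 red cell genes summed to 948000 CPM. Where 4 values follow each other, they are in the order of replicates 1 to 4. Transcripts of the surface proteins used for sorting went with their gates: Ptprc, which encodes CD45, stood at 53.0 to 117 CPM in Kit+ CD45+ cells and at no more than 1.51 CPM in any other library. Kit stood at 21 to 79.8 CPM in both Kit+ populations and at 0.907 to 5.22 CPM in the Kit- libraries. The CD41 gene Itga2b stood at no more than 102 CPM in the Kit+ libraries and at 305 to 755 CPM in Kit- CD41+ CD45- cells. Pecam1, which encodes CD31, was present in every library, at 44.8 to 295 CPM. The summed level of 16 megakaryocyte and platelet genes was 358 to 4400 CPM in the Kit+ libraries, against 25300 to 32100 CPM in Kit- CD41+ CD45- cells. Globin transcripts took at most 0.0226% of all counts in Kit+ CD45+ libraries, 16.9% to 49.3% in Kit+ CD45- and 4.18% to 14.1% in Kit- CD41+ CD45- libraries. The 15 macrophage and granulocyte genes summed to 909 to 3780 CPM in Kit+ CD45+ cells and to 64.1 to 196 CPM elsewhere. In such sorted pools, fewer cells of a type and less RNA per cell cannot be told apart.

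Compared per kilobase of exon, the 9 factors covered a wide range of levels. In Kit+ CD45+ cells under anti-Dll4, Hhex had the highest mean at 41.9 CPM per kilobase, followed by Mycn at 28.9, Myb at 4.73, Meis1 at 3.7, Ikzf2 at 3.35, Ikzf1 at 3.25, Hlf at 2.27, Mecom at 0.978 and Prdm16 at 0.344. In Kit- CD41+ CD45- cells under anti-Dll4 the order changed: Hhex stood at 20.9, Meis1 at 12.2 and Mycn at 8.93 CPM per kilobase, and Hlf was lowest at 0.00792. These are levels on a length scale, and all values below are per gene without that scale.

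**Figure D1:**
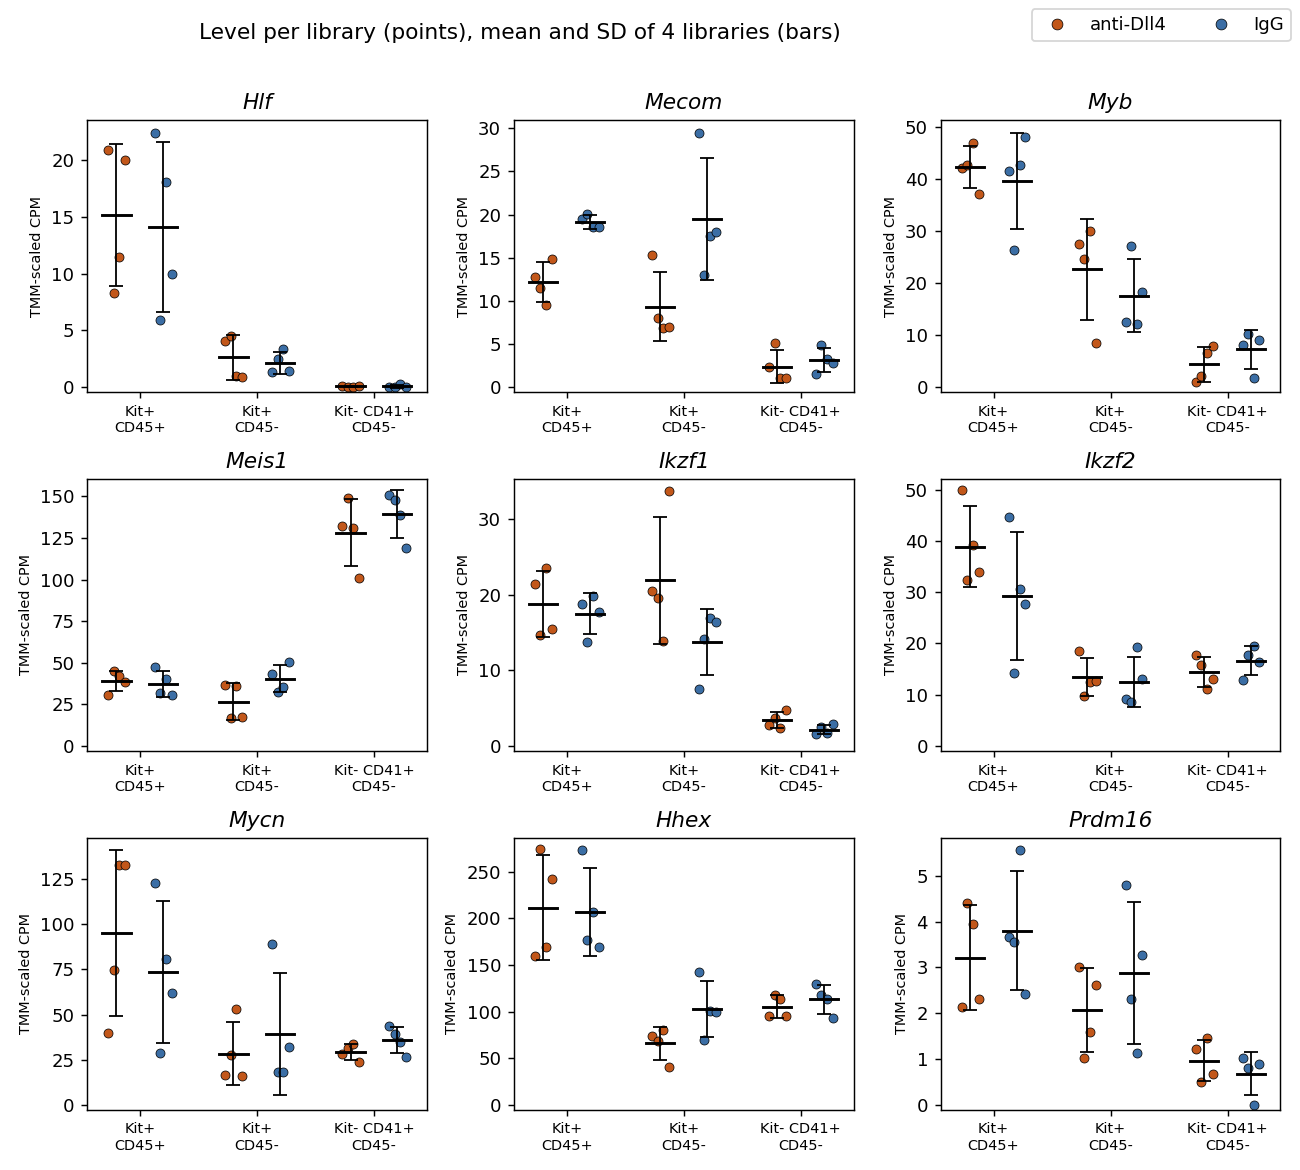
TMM-scaled CPM of each gene (y axis, linear, 1 scale per panel) in 3 sorted populations (x axis) under anti-Dll4 (orange) and IgG (blue); points are libraries and bars give the mean ± SD of 4 libraries. Hlf, Mecom, Myb, Ikzf1 and Prdm16 are lowest in Kit- CD41+ CD45- cells, Ikzf2, Mycn and Hhex are highest in Kit+ CD45+ cells, and Meis1 alone is highest in Kit- CD41+ CD45- cells.

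Hlf was read almost wholly in the Kit+ populations and was higher in Kit+ CD45+ than in Kit+ CD45- cells. The gene lies on chromosome 11, 90336536 to 90390895 on mm10 (minus strand, ENSMUSG00000003949.16), in 8 exon blocks, and its exons overlap no other annotated gene. The stretch of 250 bases upstream of its RefSeq start, chr11:90390918-90391167 on the minus strand of GRCm38.p6, is shown because Hlf had the steepest gradient of the 9 genes. It has a GC content of 67.2%, and the capitals mark the palindrome TGACGTCA, the cyclic AMP response element, which ends 1 base before the end of the window.

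Hlf promoter: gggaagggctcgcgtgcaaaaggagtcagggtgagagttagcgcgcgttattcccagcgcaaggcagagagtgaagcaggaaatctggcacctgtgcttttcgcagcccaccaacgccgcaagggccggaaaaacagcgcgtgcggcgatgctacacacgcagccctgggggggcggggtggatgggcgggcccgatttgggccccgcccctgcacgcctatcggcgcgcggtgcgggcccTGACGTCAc

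Hlf stood at 20.9, 8.29, 11.5 and 20 CPM in Kit+ CD45+ cells under anti-Dll4 and at 22.4, 5.9, 18.1 and 9.95 CPM under IgG. The Kit+ CD45- libraries had 4.1, 4.53, 1.0 and 0.875 CPM under anti-Dll4 and 1.29, 2.46, 3.36 and 1.38 CPM under IgG. In Kit- CD41+ CD45- cells it had 2 counts over the 4 anti-Dll4 libraries and 3 counts over the 4 IgG libraries, and 5 of the 8 libraries had none. The 3 populations did not overlap in any library, while the antibody groups overlapped within each population. Kit+ CD45+ cells exceeded Kit+ CD45- cells by a log2 fold change of 2.5 (SE 0.57, edgeR adjusted p = 0.00197) under anti-Dll4 and of 2.73 (SE 0.58, adjusted p = 0.00146) under IgG. Against Kit- CD41+ CD45- cells, the ratio of Hlf levels in Kit+ CD45+ cells was 291 under anti-Dll4, with an exact 95% counting interval of 80.3 to 2410, and 203 under IgG, with an interval of 69.3 to 988. The same ratio for Kit+ CD45- cells was 51.5 (13.8 to 433) under anti-Dll4 and 29.2 (9.59 to 145) under IgG. These intervals cover counting error only: they pool the 4 libraries of a group and leave out the variation between them. Amplified reads without molecular identifiers are also not independent molecules, so even the counting error may be understated. A library with 0 counts allows up to 3 counts at its depth, so Hlf was not detectable in most Kit- CD41+ CD45- libraries rather than shown to be absent.

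Mecom was higher in both Kit+ populations than in Kit- CD41+ CD45- cells, and its levels in the 2 Kit+ populations overlapped. The only Kit- population was also sorted by CD41, so no single gate can be named for Mecom. The gene spans chromosome 3, 29951296 to 30548008 on mm10 (minus strand, ENSMUSG00000027684.16). It has long and short transcript forms from separate starts, which counts per gene cannot separate, and 81 exonic bases are shared with the antisense gene Mecomos, whose reads cannot be told apart without strand. Mecom stood at 12.8, 11.5, 9.46 and 14.9 CPM in Kit+ CD45+ cells under anti-Dll4 and at 19.5, 20.1, 18.5 and 18.5 CPM under IgG. Its level in Kit+ CD45- cells was 15.3, 8.06, 6.9 and 7.0 CPM under anti-Dll4 and 29.5, 13.0, 17.5 and 18 CPM under IgG. In Kit- CD41+ CD45- cells it stood at 2.31, 5.14, 1.04 and 1.0 CPM under anti-Dll4 and at 1.54, 4.87, 3.31 and 2.77 CPM under IgG. Every Kit+ library was above every Kit- library.

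Set against Kit- CD41+ CD45- cells, Mecom was higher in Kit+ CD45+ cells by 2.34 (SE 0.42, adjusted p = 0.000101) under anti-Dll4 and by 2.61 (SE 0.41, adjusted p = 2.27e-05) under IgG, on the log2 scale. The same log2 difference for Kit+ CD45- cells was 1.96 (SE 0.42, adjusted p = 0.000979) under anti-Dll4 and 2.64 (SE 0.42, adjusted p = 3.44e-05) under IgG. Between Kit+ CD45+ and Kit+ CD45- cells the log2 differences of 0.38 (95% interval -0.43 to 1.20) under anti-Dll4 and -0.03 (-0.82 to 0.77) under IgG did not pass the test.

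Prdm16, the relative of Mecom, was the least abundant of the 9 per length in Kit+ CD45+ cells and had at most 73 counts in a library. It lies on chromosome 4, 154316125 to 154636873 on mm10 (minus strand, ENSMUSG00000039410.16), with 109 exonic bases shared with the antisense gene B230104I21Rik. Its level was 2.14, 4.42, 3.96 and 2.32 CPM in Kit+ CD45+ cells under anti-Dll4 and 3.66, 3.56, 5.56 and 2.42 CPM under IgG. For Kit+ CD45- cells the levels were 3.01, 1.01, 1.6 and 2.62 CPM under anti-Dll4 and 4.8, 2.32, 1.12 and 3.27 CPM under IgG. For Kit- CD41+ CD45- cells they were 1.21, 0.504, 1.46 and 0.667 CPM under anti-Dll4 and 1.03, 0.797, 0 and 0.888 CPM under IgG. Every Kit+ CD45+ library was above every Kit- CD41+ CD45- library, and the Kit+ CD45- libraries lay above the Kit- CD41+ CD45- ones under IgG but not under anti-Dll4. Prdm16 was higher in Kit+ CD45+ than in Kit- CD41+ CD45- cells by 1.73 (SE 0.60, adjusted p = 0.0263) under anti-Dll4 and by 2.46 (SE 0.62, adjusted p = 0.00289) under IgG, on the log2 scale. Prdm16 also passed for Kit+ CD45- over Kit- CD41+ CD45- cells under IgG, by 2.07 (SE 0.62, adjusted p = 0.0142), and the log2 difference under anti-Dll4 was 1.07 (95% interval -0.21 to 2.36). The call under IgG was lost when only the groups compared were fitted (2.07, adjusted p = 0.0666), without Kit+ CD45- IgG replicate 1 (1.69, adjusted p = 0.0596) and without replicate 1 (1.97, adjusted p = 0.073) or replicate 4 (2.12, adjusted p = 0.0701) of every group. With globin level as a covariate this call was lost as well (2.59, edgeR adjusted p = 0.0834). The call between Kit+ CD45+ and Kit- CD41+ CD45- cells under anti-Dll4 was lost without Kit+ CD45+ replicate 2 (1.54, adjusted p = 0.0708) or replicate 3 (1.61, adjusted p = 0.0589), and without Kit- CD41+ CD45- replicate 2 (1.52, adjusted p = 0.0799) or replicate 4 (1.59, adjusted p = 0.0713). It was also lost with no filter on low counts (1.67, adjusted p = 0.0545) and without replicate 2 (1.32, adjusted p = 0.205) or replicate 4 (1.70, adjusted p = 0.114) of every group.

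Myb was highest in Kit+ CD45+ cells, intermediate in Kit+ CD45- cells and lowest in Kit- CD41+ CD45- cells. It lies on chromosome 10, 21124935 to 21160984 on mm10 (minus strand, ENSMUSG00000019982.15), with 559 exonic bases shared with the antisense gene Gm26577. It stood at 42.2, 42.8, 47.0 and 37.1 CPM in Kit+ CD45+ cells under anti-Dll4 and at 41.5, 26.4, 42.7 and 48.1 CPM under IgG. Myb in Kit+ CD45- cells stood at 27.6, 24.6, 30.0 and 8.53 CPM under anti-Dll4 and 12.5, 27.2, 12.2 and 18.3 CPM under IgG. Myb in Kit- CD41+ CD45- cells stood at 1.0, 2.12, 6.58 and 8.01 CPM under anti-Dll4 and 8.04, 10.2, 1.8 and 9.1 CPM under IgG. Within each antibody, every Kit+ library was above every Kit- library. Myb was higher in Kit+ CD45+ than in Kit- CD41+ CD45- cells by 3.26 (SE 0.51, adjusted p = 1.97e-05) under anti-Dll4 and by 2.44 (SE 0.49, adjusted p = 0.000327) under IgG, on the log2 scale. Kit+ CD45- cells exceeded Kit- CD41+ CD45- cells by 2.37 (SE 0.50, adjusted p = 0.000827) under anti-Dll4. The same log2 difference under IgG was 1.26 (SE 0.48, adjusted p = 0.0526). It passed the threshold without the 3 libraries of anti-Dll4 replicate 1 (1.25, adjusted p = 0.0418), without Kit+ CD45- IgG replicate 1 (1.39, adjusted p = 0.0489), without Kit- CD41+ CD45- IgG replicate 2 (1.47, adjusted p = 0.0493), with upper-quartile (1.37, adjusted p = 0.0335) or RLE scaling (1.27, adjusted p = 0.0492) and with DESeq2 (1.28, adjusted p = 0.0314). Between the 2 Kit+ populations Myb did not pass the test, with log2 differences of 0.89 (SE 0.46, adjusted p = 0.157) under anti-Dll4 and 1.18 (SE 0.46, adjusted p = 0.0771) under IgG, of which the one under IgG passed when only the groups compared were fitted (1.17, adjusted p = 0.0215).

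Ikzf1 (chromosome 11, 11685003 to 11772926 on mm10, plus strand, ENSMUSG00000018654.17, no exonic overlap) had, like Mecom, levels that overlapped between the 2 Kit+ populations and was low in the third. Its level was 21.4, 14.7, 23.5 and 15.5 CPM in Kit+ CD45+ cells under anti-Dll4 and 18.8, 13.7, 19.8 and 17.7 CPM under IgG. Kit+ CD45- cells had 20.5, 19.5, 13.9 and 33.7 CPM under anti-Dll4 and 7.47, 14.1, 16.9 and 16.4 CPM under IgG. The Kit- CD41+ CD45- libraries had 2.81, 3.73, 2.4 and 4.78 CPM under anti-Dll4 and 1.54, 2.48, 1.7 and 2.89 CPM under IgG, below every Kit+ library. Against Kit- CD41+ CD45- cells, Ikzf1 was higher in Kit+ CD45+ cells by 2.45 (SE 0.31, adjusted p = 1.07e-06) under anti-Dll4 and by 3.02 (SE 0.32, adjusted p = 8.15e-08) under IgG, on the log2 scale. For Kit+ CD45- cells the log2 difference was 2.66 (SE 0.31, adjusted p = 6.13e-07) under anti-Dll4 and 2.67 (SE 0.32, adjusted p = 1.05e-06) under IgG. The log2 difference between Kit+ CD45+ and Kit+ CD45- cells was -0.21 (95% interval -0.81 to 0.39) under anti-Dll4 and 0.35 (-0.25 to 0.96) under IgG.

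Ikzf2, the other Ikaros family member of the 9, differed in pattern from Ikzf1: it was highest in Kit+ CD45+ cells, and its levels in Kit+ CD45- and Kit- CD41+ CD45- cells overlapped. It lies on chromosome 1, 69531214 to 69687245 on mm10 (minus strand, ENSMUSG00000025997.13), with 144 exonic bases shared with the antisense gene Gm29114. Its level was 50, 32.3, 39.3 and 34.0 CPM in Kit+ CD45+ cells under anti-Dll4 and 44.6, 14.2, 30.7 and 27.6 CPM under IgG. Levels in Kit+ CD45- cells were 18.6, 9.82, 12.5 and 12.7 CPM under anti-Dll4 and 9.13, 8.61, 19.2 and 13.0 CPM under IgG. Levels in Kit- CD41+ CD45- cells were 17.7, 15.8, 11.1 and 13.0 CPM under anti-Dll4 and 12.9, 17.7, 19.5 and 16.4 CPM under IgG. Under anti-Dll4 all 4 Kit+ CD45+ libraries lay above the other 8, and under IgG Kit+ CD45+ replicate 2 lay within their range. Ikzf2 was higher in Kit+ CD45+ than in Kit+ CD45- cells by 1.54 (SE 0.30, adjusted p = 0.0004) under anti-Dll4 and by 1.23 (SE 0.29, adjusted p = 0.00422) under IgG, on the log2 scale. It was higher than in Kit- CD41+ CD45- cells by 1.43 (SE 0.29, adjusted p = 0.000425) under anti-Dll4 and by 0.82 (SE 0.29, adjusted p = 0.0288) under IgG. The last call was lost without Kit+ CD45+ IgG replicate 1 (0.54, adjusted p = 0.162) or replicate 3 (0.79, adjusted p = 0.0573), and without Kit- CD41+ CD45- IgG replicate 1 (0.71, adjusted p = 0.0882) or replicate 4 (0.81, adjusted p = 0.0591). It was also lost with no filter on low counts (0.77, adjusted p = 0.0554), when only the groups compared were fitted (0.80, adjusted p = 0.0583) and without replicate 1, 3 or 4 of every group (0.43, 0.85 and 0.81, with adjusted p = 0.265, 0.0717 and 0.13).

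Mycn was highest in Kit+ CD45+ cells on average, with a wide spread between libraries of the same group. It lies on chromosome 12, 12936093 to 12941914 on mm10 (minus strand, ENSMUSG00000037169.15, no exonic overlap). Its level was 39.7, 74.8, 133 and 133 CPM in Kit+ CD45+ cells under anti-Dll4 and 123, 28.5, 80.6 and 61.9 CPM under IgG. Mycn in Kit+ CD45- cells stood at 16.5, 27.6, 53.2 and 16.0 CPM under anti-Dll4 and 89.1, 18.2, 18.4 and 32.1 CPM under IgG. Kit- CD41+ CD45- cells had 28.3, 31.6, 34.0 and 23.7 CPM under anti-Dll4 and 43.6, 39.0, 34.8 and 26.3 CPM under IgG. Under anti-Dll4, Mycn was higher in Kit+ CD45+ than in Kit+ CD45- cells by 1.73 (SE 0.49, adjusted p = 0.00999) and than in Kit- CD41+ CD45- cells by 1.69 (SE 0.49, adjusted p = 0.00835), on the log2 scale. Under IgG the same log2 differences were 0.89 (SE 0.48, adjusted p = 0.21) and 1.03 (SE 0.48, adjusted p = 0.0966). The difference from Kit- CD41+ CD45- cells under IgG passed without Kit+ CD45+ IgG replicate 2 (1.30, adjusted p = 0.0394). Without replicate 4 of every group, both calls under anti-Dll4 were lost (1.33, adjusted p = 0.157, and 1.37, adjusted p = 0.104).

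Hhex was the most abundant of the 9 per length and was highest in Kit+ CD45+ cells. It lies on chromosome 19, 37434810 to 37440731 on mm10 (plus strand, ENSMUSG00000024986.11, no exonic overlap). Its level was 160, 275, 169 and 242 CPM in Kit+ CD45+ cells under anti-Dll4 and 273, 177, 207 and 169 CPM under IgG. Kit+ CD45- cells had 74.2, 67.9, 80.3 and 40.7 CPM under anti-Dll4 and 142, 69.2, 101 and 99.3 CPM under IgG. Kit- CD41+ CD45- cells had 95.6, 118, 113 and 94.9 CPM under anti-Dll4 and 130, 118, 113 and 92.6 CPM under IgG. Every Kit+ CD45+ library was above every library of the other 2 populations. Hhex was higher in Kit+ CD45+ than in Kit+ CD45- cells by 1.68 (SE 0.23, adjusted p = 6.35e-06) under anti-Dll4 and by 1.00 (SE 0.22, adjusted p = 0.00222) under IgG, on the log2 scale. It was higher than in Kit- CD41+ CD45- cells by 1.01 (SE 0.22, adjusted p = 0.000898) under anti-Dll4 and by 0.87 (SE 0.22, adjusted p = 0.00331) under IgG. Under anti-Dll4, Kit+ CD45- cells were below Kit- CD41+ CD45- cells by a log2 difference of -0.68 (SE 0.22, adjusted p = 0.0237), against -0.14 (SE 0.22, adjusted p = 0.696) under IgG. The call of -0.68 was lost with upper-quartile scaling (-0.54, adjusted p = 0.058), without Kit+ CD45- anti-Dll4 replicate 4 (-0.52, adjusted p = 0.0798) and without Kit- CD41+ CD45- anti-Dll4 replicate 2 (-0.62, adjusted p = 0.0633). It was also lost without replicate 2, 3 or 4 of every group (-0.63, -0.78 and -0.57, with adjusted p = 0.0862, 0.0557 and 0.104). With globin level as a covariate this call was lost as well (-0.36, edgeR adjusted p = 0.44).

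Meis1 ran the other way: it was highest in Kit- CD41+ CD45- cells. It lies on chromosome 11, 18879817 to 19018985 on mm10 (minus strand, ENSMUSG00000020160.18), and 2 annotated genes share exonic bases with it, the larger overlap being 1029 bases with Gm37818 on the same strand. The part of its upstream window that no annotated exon overlaps, chr11:19018986-19019219 on the minus strand of GRCm38.p6 (234 bases, 60.3% GC), is printed because its gene had the opposite pattern to Hlf. The capitals mark a TGTGGT, the core motif of Runx factors.

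Meis1 promoter: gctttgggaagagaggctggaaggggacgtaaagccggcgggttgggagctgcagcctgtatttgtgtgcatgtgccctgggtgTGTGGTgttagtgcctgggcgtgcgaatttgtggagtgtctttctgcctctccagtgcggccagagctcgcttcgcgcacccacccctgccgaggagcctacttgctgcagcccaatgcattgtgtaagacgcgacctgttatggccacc

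Other motifs were searched in these windows on both strands. They were GTGGGAA for the Notch effector RBPJ, AGATAA for the blood factor Gata2 and its relatives, CCGGAAG for ETS factors such as Erg, and TGACAG for Meis factors. Also searched were the E-box CACGTG of Myc with Max and the site TTACNTAA of PAR leucine zippers. None of these was found in either window. Another Gata form, TGATAA, was added with TGACGTCA after the sequences were seen, and it was not found. TGACGTCA stood in 1.55% and TGTGGT in 14.0% of 32851 RefSeq promoter windows of 250 bases. No match overlapped another, and a match of letters describes the window and shows no binding.

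In Kit+ CD45+ cells Meis1 stood at 30.6, 44.8, 41.9 and 38.6 CPM under anti-Dll4 and at 47.2, 31.6, 40.3 and 30.4 CPM under IgG. Kit+ CD45- cells had 36.6, 16.8, 36.0 and 17.3 CPM under anti-Dll4 and 43.5, 32.3, 35.6 and 50.2 CPM under IgG. Kit- CD41+ CD45- cells had 132, 149, 131 and 101 CPM under anti-Dll4 and 151, 148, 139 and 119 CPM under IgG. The 8 Kit- CD41+ CD45- libraries stood apart from the 16 Kit+ libraries, which overlapped among themselves. In Kit+ CD45+ cells Meis1 was lower than in Kit- CD41+ CD45- cells, by a log2 difference of -1.72 (SE 0.23, adjusted p = 1.81e-06) under anti-Dll4 and -1.90 (SE 0.23, adjusted p = 4.73e-07) under IgG. For Kit+ CD45- cells the log2 difference was -2.26 (SE 0.23, adjusted p = 8.07e-08) under anti-Dll4 and -1.78 (SE 0.23, adjusted p = 2.27e-06) under IgG. Between Kit+ CD45+ and Kit+ CD45- cells it was 0.54 (SE 0.23, adjusted p = 0.0768) under anti-Dll4 and -0.11 (SE 0.22, adjusted p = 0.783) under IgG. The value under anti-Dll4 passed without Kit+ CD45+ replicate 1 (0.64, adjusted p = 0.0452), without Kit+ CD45- replicate 1 (0.71, adjusted p = 0.0286) and without Kit+ CD45- replicate 3 (0.72, adjusted p = 0.0248). It also passed without the 3 libraries of anti-Dll4 replicate 1 (0.81, adjusted p = 0.021) and without replicate 1 of every group (0.82, adjusted p = 0.0181).

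Counted over the 9, most differed between Kit+ CD45+ and Kit- CD41+ CD45- cells. Under anti-Dll4 all 9 passed the test (8 higher, with Meis1 lower), where 37.6% of all genes tested did, and under IgG 8 passed (7 higher, Meis1 lower), where 37.2% of all genes did. Mycn was the one that did not pass under IgG. Between Kit+ CD45- and Kit- CD41+ CD45- cells, 6 passed under anti-Dll4 (Hlf, Mecom, Myb and Ikzf1 higher, Meis1 and Hhex lower; 29.9% of all genes passed) and 5 under IgG (Hlf, Mecom, Ikzf1 and Prdm16 higher, Meis1 lower; 27.9% of all genes passed). Between Kit+ CD45+ and Kit+ CD45- cells, 4 were higher under anti-Dll4 (Hlf, Ikzf2, Mycn and Hhex; 29.2% of all genes passed in either direction) and 3 under IgG (Hlf, Ikzf2 and Hhex; 19.2%). In that comparison the counts lie nearer to the background than in the other 2, and under anti-Dll4 the median log2 difference was 0.89 over the 9 genes and 0.10 over all genes tested. Separation of all libraries, given above for single genes, was common between populations. The groups did not overlap for 19.7% to 38.3% of all genes tested, depending on the comparison. The comparisons under 1 antibody share libraries, so their counts are not independent. The difference between the IgG and anti-Dll4 counts was not tested as such. The 9 genes were chosen with earlier results of these data known, so their counts are not those of an independent list.

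The globin share of counts differed between all 3 populations, as given above, and moved with each of these comparisons. With globin level as a covariate, 0 of the 9 passed between Kit+ CD45+ and Kit- CD41+ CD45- cells under anti-Dll4 and 1 under IgG, and 0 passed between Kit+ CD45+ and Kit+ CD45- cells under either antibody. Over all genes, 6 and 15 passed in the first pair of comparisons and 0 in each of the second pair, and globin level and population cannot be told apart there. Between Kit+ CD45- and Kit- CD41+ CD45- cells the count with this covariate was 5, against 6 without it, under anti-Dll4 and 3, against 5 without it, under IgG. There the covariate ended the call of Hhex under anti-Dll4 (-0.36, edgeR adjusted p = 0.44). Under IgG it ended the calls of Hlf (3.23, edgeR adjusted p = 0.0651) and Prdm16 (2.59, edgeR adjusted p = 0.0834). The fitted direction turned with the covariate for some genes. Hhex in Kit+ CD45+ cells then had a log2 difference of -0.68 from Kit+ CD45- cells and -1.04 from Kit- CD41+ CD45- cells under anti-Dll4, and Mycn of -5.47 and -4.61, none of which passed the test (adjusted p = 0.899, 0.776, 0.533 and 0.496).

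**Figure D2:**
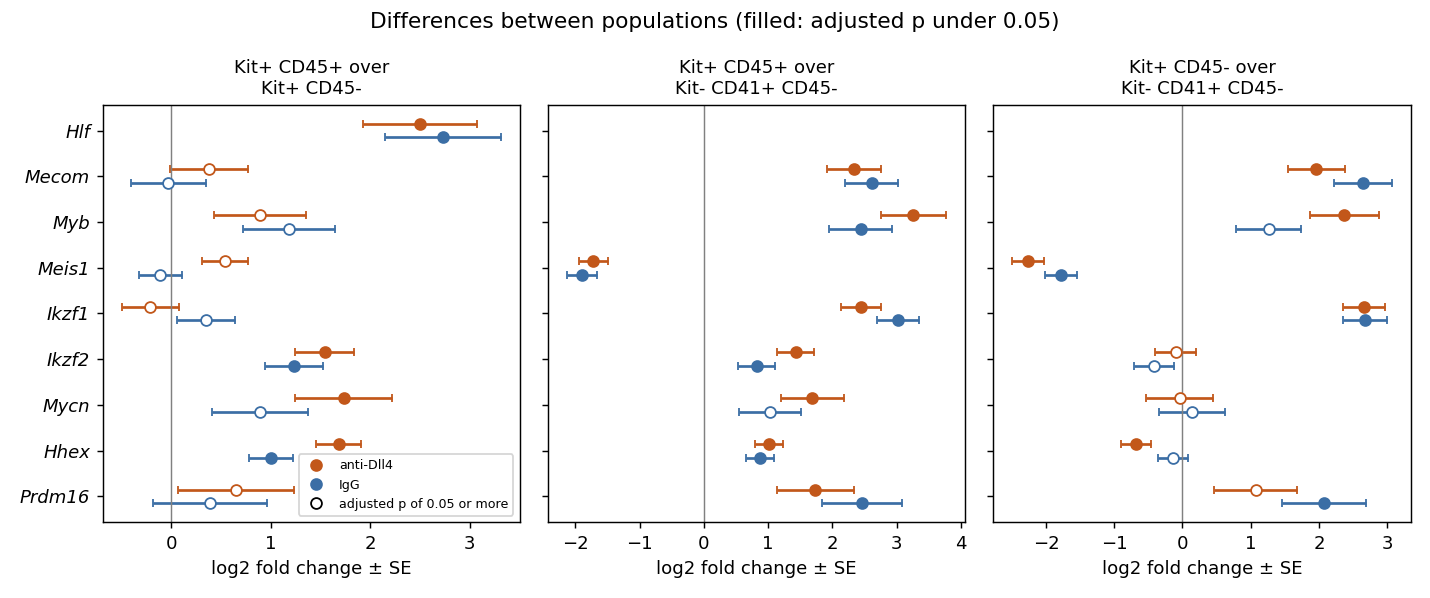
Log2 fold change ± SE (x axis) of each gene for 3 pairs of populations under anti-Dll4 (orange) and IgG (blue); filled points have an adjusted p under 0.05. Hlf is left out of the panels against Kit- CD41+ CD45- cells, where that group had 2 and 3 counts; Meis1 lies left of 0 in both of those panels, and Mecom, Myb and Ikzf1 lie right of 0.

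The series was designed to ask what an antibody against Dll4 changes in these populations. None of the 9 genes passed the edgeR test for it: 0 of 9 were called in Kit+ CD45+ cells (0.0064% of all genes were called), 0 of 9 in Kit+ CD45- cells (0.0%), 0 of 9 in Kit- CD41+ CD45- cells (0.0%) and 0 of 9 in the mean of the 3 effects (0.0%). At an unadjusted p under 0.05 there were 0, 4, 1 and 2 of the 9 in those comparisons, and over all genes 453, 1733, 435 and 1311. DESeq2 called 0 of the 9 in each and 14, 75, 2 and 31 of all genes.

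Mecom had the largest log2 difference of those computed, with lower values under anti-Dll4. Its level averaged 9.31 ± 4.03 CPM under anti-Dll4 and 19.5 ± 7.05 CPM under IgG in Kit+ CD45- cells (SD, n = 4 each), a log2 difference of -1.07 (SE 0.39, unadjusted p = 0.0119 and adjusted p = 0.362 by edgeR). In Kit+ CD45+ cells it averaged 12.2 ± 2.26 CPM under anti-Dll4 and 19.1 ± 0.81 CPM under IgG, a log2 difference of -0.65 (SE 0.38, edgeR adjusted p = 1). The 95% interval was -1.45 to 0.15 (unadjusted p = 0.0989 by edgeR). There all 4 anti-Dll4 libraries lay below all 4 IgG libraries, as was so for 0.839% of all genes tested. In either direction the groups did not overlap for 1.8% of all genes there. The shares were 3.15% in Kit+ CD45- and 2.22% in Kit- CD41+ CD45- cells, where 0 of the 9 genes were so separated. In Kit- CD41+ CD45- cells Mecom averaged 2.37 ± 1.94 CPM under anti-Dll4 and 3.12 ± 1.38 CPM under IgG, with a log2 difference of -0.39 (95% interval -1.28 to 0.51). The mean of the 3 log2 differences was -0.70 (SE 0.23, unadjusted p = 0.00572 and adjusted p = 0.503 by edgeR). In Kit+ CD45- cells, anti-Dll4 replicate 1 at 15.3 CPM was the library that overlapped the IgG range, and leaving out libraries in turn gave log2 differences between -1.40 and -0.79.

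In Kit+ CD45- cells 3 other genes had an unadjusted p under 0.05 and failed the correction. Hhex averaged 65.8 ± 17.5 CPM under anti-Dll4 and 103 ± 30.1 CPM under IgG (log2 difference -0.64, SE 0.22, edgeR adjusted p = 0.334). Meis1 averaged 26.7 ± 11.1 CPM under anti-Dll4 and 40.4 ± 8.07 CPM under IgG (-0.59, SE 0.23, edgeR adjusted p = 0.383). Ikzf1 was the one with higher values, 21.9 ± 8.37 CPM under anti-Dll4 and 13.7 ± 4.34 CPM under IgG (0.67, SE 0.29, edgeR adjusted p = 0.412). In Kit- CD41+ CD45- cells the log2 difference of Ikzf1 was again 0.67 (SE 0.32, edgeR adjusted p = 1), from 3.43 ± 1.06 CPM under anti-Dll4 and 2.15 ± 0.638 CPM under IgG. The libraries of these groups overlapped in each of these cases.

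For the other genes the intervals included 0. So did that of Ikzf1 in Kit- CD41+ CD45- cells, -0.01 to 1.36, though its unadjusted p by edgeR was 0.0488. Interval and test thus differed at that margin. The 95% interval in Kit+ CD45- cells of the log2 difference was -0.90 to 1.56 for Hlf, -0.59 to 1.36 for Myb, -0.52 to 0.73 for Ikzf2, -1.49 to 0.55 for Mycn and -1.73 to 0.73 for Prdm16. In Kit+ CD45+ cells it was -0.98 to 1.20 for Hlf, -0.86 to 1.04 for Myb, -0.19 to 1.01 for Ikzf2 and -0.42 to 0.49 for Hhex. For Hlf in Kit- CD41+ CD45- cells, with 2 counts under anti-Dll4 and 3 under IgG, no fold is given.

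No gene of the 9 passed a test of whether the antibody effect differed between populations. The joint test of the 3 effects called 0 of 9 (0.0256% of all genes were called), and the test of Kit+ CD45- minus Kit+ CD45+ called 0 of 9 (0.0128%). In the second, 1 of the 9 had an unadjusted p under 0.05, as did 924 of the 15618 genes tested. The antibody effect on that gene, Hhex, was lower in Kit+ CD45- cells by a log2 value of -0.68 (SE 0.31, unadjusted p = 0.0397 and adjusted p = 0.834 by edgeR).

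**Figure D3:**
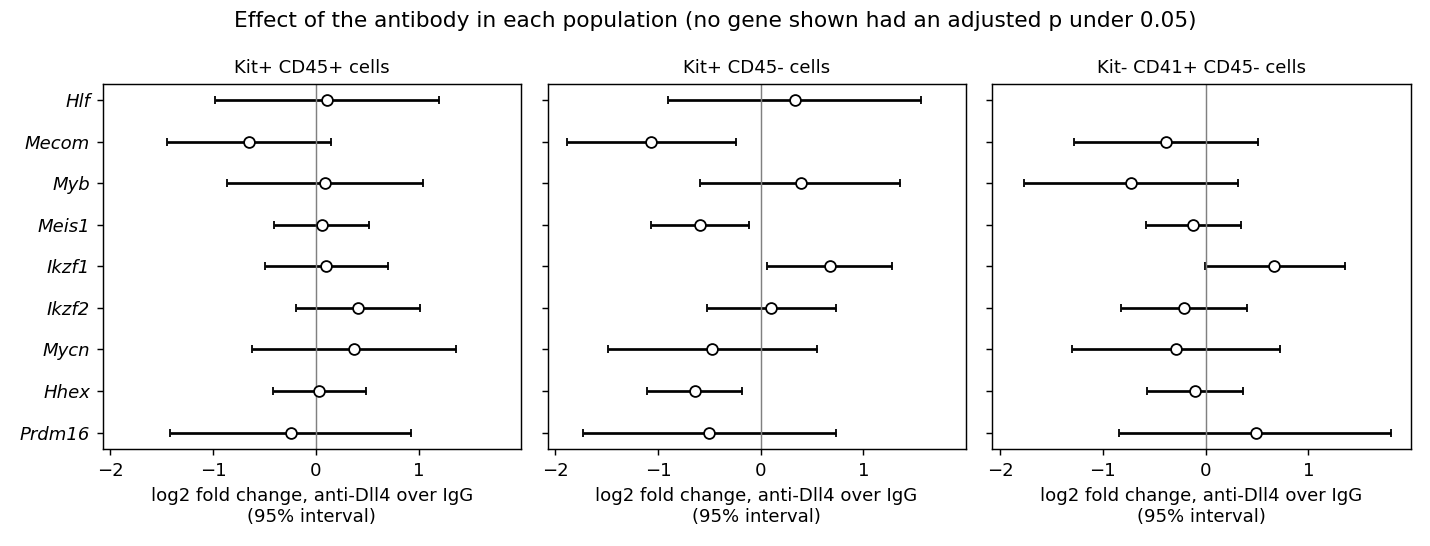
Log2 fold change of anti-Dll4 over IgG with its 95% interval (x axis) for each gene in 3 populations. No gene shown had an adjusted p under 0.05; Mecom lies left of 0 in all 3 panels, at -0.65, -1.07 and -0.39, and Hlf is left out of the last panel, where it had 2 and 3 counts.

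Marker transcripts were summed for the antibody groups of Kit+ CD45- cells, where no marker gene listed here passed the test. The summed level of 20 endothelial genes was 795 to 1540 CPM under anti-Dll4 and 1490 to 3290 CPM under IgG, with none of the 20 at 0 in all libraries of either group. Of the 20, 0 passed the test, and their median log2 difference was -0.81, against -0.03 over all genes tested. The 16 megakaryocyte and platelet genes summed to 896 to 1980 CPM under anti-Dll4 and 997 to 4400 CPM under IgG, with 0 called and a median of -1.08. The 16 stem and progenitor surface genes summed to 234 to 460 CPM under anti-Dll4 and 487 to 811 CPM under IgG, with 0 called and a median of -0.70. The highest endothelial sum was in IgG replicate 1, which also had the highest Mecom, Mycn, Hhex and Prdm16 and the lowest Ikzf1 of that group. Globin shares were 34.0%, 36.2%, 22.1% and 49.3% under anti-Dll4 and 16.9%, 33.7%, 29.8% and 27.4% under IgG. The part of these marker transcripts in the differences of Mecom, Hhex, Meis1 and Ikzf1 was not tested. With globin level as a covariate the log2 difference in Kit+ CD45- cells was -0.99 for Mecom, -0.56 for Hhex, -0.54 for Meis1 and 0.45 for Ikzf1, and in Kit- CD41+ CD45- cells that of Ikzf1 was 0.18. In Kit+ CD45+ cells the endothelial sum was 2690 to 3660 CPM under anti-Dll4 and 2730 to 3770 CPM under IgG, and the megakaryocyte and platelet sum was 689 to 855 CPM under anti-Dll4 and 358 to 644 CPM under IgG. There 0 of the 20 endothelial genes and 1 of the 16 megakaryocyte and platelet genes passed, the latter higher under anti-Dll4. For the effect in Kit+ CD45- minus Kit+ CD45+ cells, 2 of the 16 passed, both lower. Of all 15618 genes tested, 1 passed for the antibody in Kit+ CD45+ cells and 2 for that difference. The marker lists were chosen with earlier results of these data known. The part of these markers in the Mecom difference of Kit+ CD45+ cells was not tested.

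**Figure D4:**
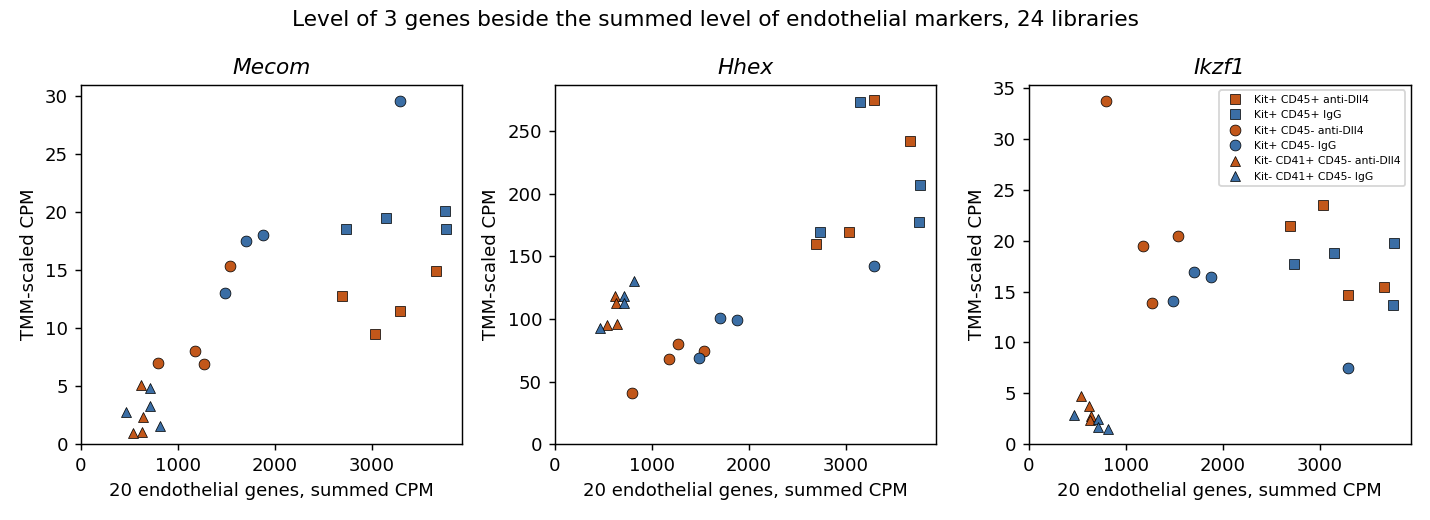
Level of Mecom, Hhex and Ikzf1 (y axes, TMM-scaled CPM) against the summed CPM of 20 endothelial genes (x axis) in 24 libraries; squares are Kit+ CD45+, circles Kit+ CD45- and triangles Kit- CD41+ CD45- cells, orange anti-Dll4 and blue IgG. Among the circles, anti-Dll4 libraries lie between 795 and 1540 CPM and IgG libraries between 1490 and 3290 CPM on the x axis.

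Relatives and partners of the 9 factors were counted in the same fits. Of 39 such genes 33 were tested, and 0 passed for the antibody in any population. Between Kit+ CD45+ and Kit- CD41+ CD45- cells 5 were higher and 6 lower under anti-Dll4, and 5 were higher and 7 lower under IgG. These are 33.3% and 36.4% of the 33, near the 37.6% and 37.2% of all genes that passed. The median log2 difference over the 33 was -0.14 under anti-Dll4 and -0.19 under IgG, against 0.06 and 0.05 over all genes tested. Myc, the better known relative of Mycn, averaged 338 ± 179 CPM in Kit+ CD45+ cells and 69.8 ± 19.0 CPM in Kit- CD41+ CD45- cells under anti-Dll4 (log2 difference 2.28, adjusted p = 5.79e-07), and the log2 difference under IgG was 1.78 (adjusted p = 1.44e-05). Mlx, a Max-like factor, was lower in Kit+ CD45+ than in Kit- CD41+ CD45- cells under IgG, at 53.8 ± 8.02 against 99.2 ± 6.72 CPM (-0.88, adjusted p = 2.17e-05).

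Between the 2 Kit+ populations, 5 relatives were higher and 7 lower in Kit+ CD45+ cells under anti-Dll4, and 4 were higher and 6 lower under IgG. These are 36.4% and 30.3% of the 33, where 29.2% and 19.2% of all genes passed. Nfil3, a leucine zipper repressor that binds the same sites as the PAR factors, averaged 80.6 ± 15.7 CPM in Kit+ CD45+ cells and 18.5 ± 8.19 CPM in Kit+ CD45- cells under anti-Dll4 (log2 difference 2.10, adjusted p = 0.000103). Mxd1, a repressor that competes with Myc proteins for Max, averaged 40.9 ± 16.7 CPM in Kit+ CD45+ cells and 13.2 ± 7.24 CPM in Kit+ CD45- cells under anti-Dll4 (1.63, adjusted p = 0.000679). In Kit+ CD45- cells it was lower than in Kit- CD41+ CD45- cells, with 13.2 ± 7.24 CPM in Kit+ CD45- cells and 117 ± 39.6 CPM in Kit- CD41+ CD45- cells under anti-Dll4 (-3.14, adjusted p = 1.98e-07).

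A list of 32 other regulators of blood stem cells was tested in full, and 0 passed for the antibody in any population. Between Kit+ CD45+ and Kit- CD41+ CD45- cells 12 were higher and 6 lower under anti-Dll4, and 13 were higher and 9 lower under IgG, which are 56.2% and 68.8% of the 32, where 37.6% and 37.2% of all genes passed. Between Kit+ CD45+ and Kit+ CD45- cells the counts were 12 higher and 4 lower under anti-Dll4 and 4 higher and 5 lower under IgG, 50% and 28.1% of the 32, where 29.2% and 19.2% of all genes passed. Erg, an ETS factor of endothelium and stem cells, averaged 15.8 ± 3.43 CPM in Kit+ CD45+ cells and 0.176 ± 0.208 CPM in Kit- CD41+ CD45- cells under anti-Dll4, and 16.1 ± 3.79 against 0.355 ± 0.274 CPM under IgG. Gfi1b, a repressor that acts in the erythroid and megakaryocyte lineages, and Tal1, a helix-loop-helix factor of the same lineages, ran the other way. Gfi1b averaged 54.8 ± 11.6 CPM in Kit+ CD45+ cells and 602 ± 63.9 CPM in Kit- CD41+ CD45- cells under anti-Dll4 (log2 difference -3.46, adjusted p = 4.42e-09). Tal1 averaged 11.1 ± 5.09 CPM in Kit+ CD45+ cells and 66.4 ± 4.95 CPM in Kit- CD41+ CD45- cells under anti-Dll4 (-2.57, adjusted p = 3.39e-08). Runx1, needed for blood cells to leave the endothelium, was lower in Kit+ CD45- than in Kit- CD41+ CD45- cells, at 34.9 ± 8.43 against 143 ± 11.8 CPM under anti-Dll4 (-2.04, adjusted p = 8.46e-07).

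The 9 patterns were also set against all other genes, by the root mean square difference of log2 CPM after centring each gene on its mean over the 24 libraries, among 10321 genes. The closest to Meis1 were Timp3 (0.20), Pdlim7 (0.25) and Atp2c1 (0.30), and the closest to Hhex were Egfl7 (0.23), Crlf2 (0.27) and Tes (0.27). Mycn lay closest to Ddit4 (0.39), Gramd1a (0.43) and Sh3gl1 (0.46), and Ikzf2 to S100a11 (0.40), Pnp (0.41) and Lysmd2 (0.42). Mecom lay closest to Lpar4 (0.47), App (0.48) and Map4k4 (0.52), Myb to Itga4 (0.56), Cmtm7 (0.69) and Bcl11a (0.70), and Ikzf1 to Cerkl (0.58), Sh3pxd2b (0.61) and Cep164 (0.63). Prdm16 lay closest to Fkbp5 (0.64), Tfpi (0.66) and Eogt (0.69), and Hlf to Casp4 (0.76), Pde4b (0.78) and Lcp1 (0.80). Egfl7, an endothelial gene, averaged 485 CPM in Kit+ CD45+ cells, 185 CPM in Kit+ CD45- cells and 268 CPM in Kit- CD41+ CD45- cells under anti-Dll4. Timp3, an inhibitor of metalloproteinases, averaged 110 CPM in Kit+ CD45+ cells, 75.7 CPM in Kit+ CD45- cells and 385 CPM in Kit- CD41+ CD45- cells under anti-Dll4. Genes with few counts are noisier, so the distances of different members are not on an equal footing. Among the 9 themselves the closest pairs were Ikzf2 with Hhex (0.53) and Mycn with Hhex (0.55). The distance also depends on how much each gene varies. The root mean square of a member's own centred values ran from 0.66 for Hhex to 2.46 for Hlf, with 0.71 for Ikzf2 and 0.92 for Mycn. Genes that vary little lie near each other, so a small distance between them need not mean a shared pattern.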

How the data were processed

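RNA from sorted CD31+ cells was measured by RNA-seq in 24 libraries, 4 per population and antibody. Per the labels' protocols, polyA RNA was copied into cDNA and amplified by long-distance PCR. Per the submitters' processing notes, the tools were STAR, HTSeq, DESeq2, CASAVA 1.4 and FastQC on build mm10, with no role stated for any. The deposited table holds raw counts per gene, not normalized. The deposited log2 table, normalized by the authors, served only for gene names and positions, and 1 of its columns, which matches none of the samples, was left out.

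All tests used edgeR 4.0.16 (R 4.3.3) on the counts of all genes: TMM factors, filterByExpr by group, 1 coefficient per group, robust quasi-likelihood F-test with 18 residual degrees of freedom, and Benjamini-Hochberg adjustment within each comparison with a threshold of 0.05. SEs are the log2 fold change divided by the root of F. The script was tested on simulated data. Alternatives were upper-quartile and RLE scaling, DESeq2 1.42.0, 2 other filters, smaller fits, blocks for the replicate number, a globin covariate and left-out libraries. Exonic lengths and overlaps came from GENCODE M21, where Hhex was matched without its version. Upstream sequences came from RefSeq (GRCm38.p6), which matched 8 of the 9 genes. Depth ran from 8718351 to 11379830 counts per library. The 9 genes, the other lists and the tests were chosen with earlier results of these data known. Besides the 9, genes are named for their likeness to a member or for the smallest p-values in a list. Some genes that this rule names are not reported here. Libraries of different antibodies with the same replicate number did not deviate together, so numbers were not used to pair samples.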

Additional observations from a re-analysis of the deposited data

Results flagged for a closer look

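In 2 of 54 groups of 4 libraries, 1 library stood apart from the other 3 by most of the group's range, where chance gives about 1 in 20 for normally distributed values. Mecom in Kit+ CD45- cells under anti-Dll4 stood at 15.3 CPM in replicate 1, against 6.9 to 8.06 CPM in the other 3. Hlf in Kit- CD41+ CD45- cells under IgG stood at 0.301 CPM in replicate 3, which is 3 counts, with none in the other 3. Where the other 3 are all 0 the gap always equals the whole range, so that chance rate does not hold for this group.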

How the results depend on the processing

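Of 769 recomputed log2 differences that were called, 715 stayed past the threshold in the same direction, 47 did not pass and 7 turned round. Of 337 uncalled ones 13 passed and 2 turned round. The 337 values belong to 14 uncalled results, those with an unadjusted p under 0.05 and the antibody effects on Mecom. The other uncalled differences are not in these counts, so how often they changed direction is not given. All 9 that turned round, and 19 of the 47, came from the globin covariate between populations. There, in Kit+ CD45+ over Kit+ CD45- cells, Hhex was at -0.68 under anti-Dll4 and -1.24 under IgG, Mycn at -5.47 and Meis1 at -1.16 under anti-Dll4. In Kit+ CD45+ over Kit- CD41+ CD45- cells, Hhex was at -1.04 under anti-Dll4 and -0.95 under IgG, Mycn at -4.61 and -4.40, and Prdm16 at -0.71 under anti-Dll4. None of these values passed. The count of the 9 genes called for the antibody stayed at 0 in all alternatives. The counts over all genes moved more. For the antibody in Kit+ CD45+ cells the count was 1, with 0 without a filter and when only the groups compared were fitted, 14 with DESeq2 and 0 to 1 with replicates left out. In Kit+ CD45- cells it was 0, with 75 by DESeq2 and 0 to 67 with replicates left out. In Kit- CD41+ CD45- cells it was 0, with 1 without a filter, 1 with the replicate block, 2 by DESeq2 and 0 to 1 with replicates left out. For the mean effect it was 0, with 1 without a filter, 31 by DESeq2 and 0 to 2 with replicates left out. For the joint test of the difference it was 4, with 0 without a filter, 1 with the replicate block, 0 with the replicate block by set, 0 with the globin covariate, 25 by DESeq2 and 0 to 14 with replicates left out. For Kit+ CD45- minus Kit+ CD45+ it was 2, with 0 without a filter, 1 with the replicate block by set, 0 when only the groups compared were fitted, 29 by DESeq2 and 0 to 29 with replicates left out. The replicate numbers did not pair the samples of the 2 antibodies: same-numbered libraries correlated by -0.147 to 0.10 in their deviations (median -0.02). Libraries of the same antibody and number correlated across populations by -0.064 to 0.197 (median 0.052), with 6 of 24 over 0.1. The main tests between populations used no block for these sets and took their libraries as independent. Neither block changed a call on the 9 genes. Between populations the globin covariate gave, of the 9, 3 (Kit+ CD45- over Kit- CD41+ CD45-, IgG), 0 and 0 (Kit+ CD45+ over Kit+ CD45-, both antibodies), and 0 and 1 (Kit+ CD45+ over Kit- CD41+ CD45-, anti-Dll4 and IgG). Over all genes it gave 2857 and 2307, 0 and 0, and 6 and 15 for these pairs under anti-Dll4 and IgG. With replicates left out, Kit+ CD45+ over Kit+ CD45- gave 2351 to 4950 genes under anti-Dll4 and 1551 to 3397 under IgG. Upper-quartile scaling moved the share of higher calls in that comparison to 46.2%, against 56.8%, under anti-Dll4 and to 41.8%, against 52.2%, under IgG, and in Kit+ CD45- over Kit- CD41+ CD45- under anti-Dll4 to 61.3%, against 49.0%, with a median log2 difference over all genes of 0.21, against 0.07. The cause of these changes was not tested. Depth limits Hlf in Kit- CD41+ CD45- cells and Prdm16 throughout.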
